A study of Mus musculus with 6 samples.

Results

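NF-kB genes were examined as a set of 30 out of the 17739 genes measured: NF-kB subunits and inhibitors, feedback and survival genes, adhesion molecules, chemokines, cytokines with Ptgs2, and acute phase proteins. The set was given by name and all 30 genes were found in the table. RNA came from mammary epithelial organoids, tissue fragments enriched for epithelium, of FVB mice on day 1 of lactation. Mammary glands were digested with collagenase I and Pronase. The 2 genotypes were wild type (3 mice) and Nmi-/- (3 mice), which the series title calls a conditional knockout, with 1 library per mouse. The Cre driver, the deleted exons and the age of the mice were not stated in the labels, so the cells in which Nmi was removed are not known here.

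NF-kB is a family of transcription factor dimers held in the cytoplasm by IkB inhibitors. Signals from TNF, interleukin-1 or Toll-like receptors activate the IKK kinases, the inhibitors are destroyed, and the freed dimers switch on chemokines, cytokines, adhesion molecules, survival genes and their own inhibitors. In the mammary gland the pathway is known for alveolar growth in pregnancy, downstream of RANK, and for the acute phase response of involution and mastitis. Nmi, an interferon-inducible binding partner of Myc and STAT proteins, has also been described in the literature as a modulator of NF-kB signalling.

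The sequence that NF-kB dimers bind, the kappa B site, was found near the starts of many of these genes. The kappa B consensus of 10 bases was searched on both strands in windows of 300 bases, from 250 before to 50 after each RefSeq gene start (GRCm38.p6, a C57BL/6J reference, not FVB). Of the 23 listed genes with a window, 13 (56.5%) held a match in at least 1 window, against 5.14% of all 27025 genes with one. Nfkb1, Relb, Nfkbiz, Vcam1, Ccl2, Ccl5 and Cxcl5 had no entry. A match describes letters in a window, not occupancy by the factor. The stretches below come from genes whose levels are described afterwards and lie outside the annotated span of their own gene or span at most 27 bases. Capitals mark the match, or the union of overlapping matches, and each runs 5′ to 3′ on the strand of the gene.
Nfkbia, chr12:55492652-55492691, minus strand: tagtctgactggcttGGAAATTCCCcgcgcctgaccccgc
Nfkbie, chr17:45555579-45555618, plus strand: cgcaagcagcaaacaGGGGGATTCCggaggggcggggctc
Rel, chr11:23771036-23771076, minus strand: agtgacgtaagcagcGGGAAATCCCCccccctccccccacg
Nfkb2, chr19:46304711-46304736, plus strand: ctcggggggccgaaaGGGGCTTTCCc
Tnfaip3, chr10:19015411-19015437, minus strand: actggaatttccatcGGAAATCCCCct
Cxcl1, chr5:90891159-90891199, plus strand: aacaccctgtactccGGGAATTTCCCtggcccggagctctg
Cxcl2, chr5:90903787-90903827, plus strand: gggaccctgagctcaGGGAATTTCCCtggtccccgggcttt
Cxcl10, chr5:92349024-92349063, minus strand: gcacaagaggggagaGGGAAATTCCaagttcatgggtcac
Cxcl10, chr5:92348968-92349007, minus strand: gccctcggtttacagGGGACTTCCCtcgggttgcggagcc
Il6, chr5:30013055-30013094, plus strand: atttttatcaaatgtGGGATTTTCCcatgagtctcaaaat
Csf1, chr3:107760599-107760638, minus strand: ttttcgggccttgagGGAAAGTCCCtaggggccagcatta

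Cxcl1 and Cxcl2, neighbouring neutrophil chemokine genes, carried the same 11-base match, at -71 to -61 and at -97 to -87 from their starts. In Nfkbia the match lay at -29 to -20 and in Tnfaip3 at -12 to -3, with a further Tnfaip3 match at -125 to -116. Cxcl10 had 2 matches. Matches were also present in Sod2 and Ccl20 before the start and in Bcl3 after it. Tnfaip2, Birc3, Traf1, Icam1, Il1b, Tnf, Ptgs2, Lcn2, Saa1 and Saa2 had none of these letters in their windows. The 11 tested genes with a match before the start had a median log2 fold change of 0.099 between genotypes, and the 10 tested genes without one had 0.19.

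**Figure D1:**
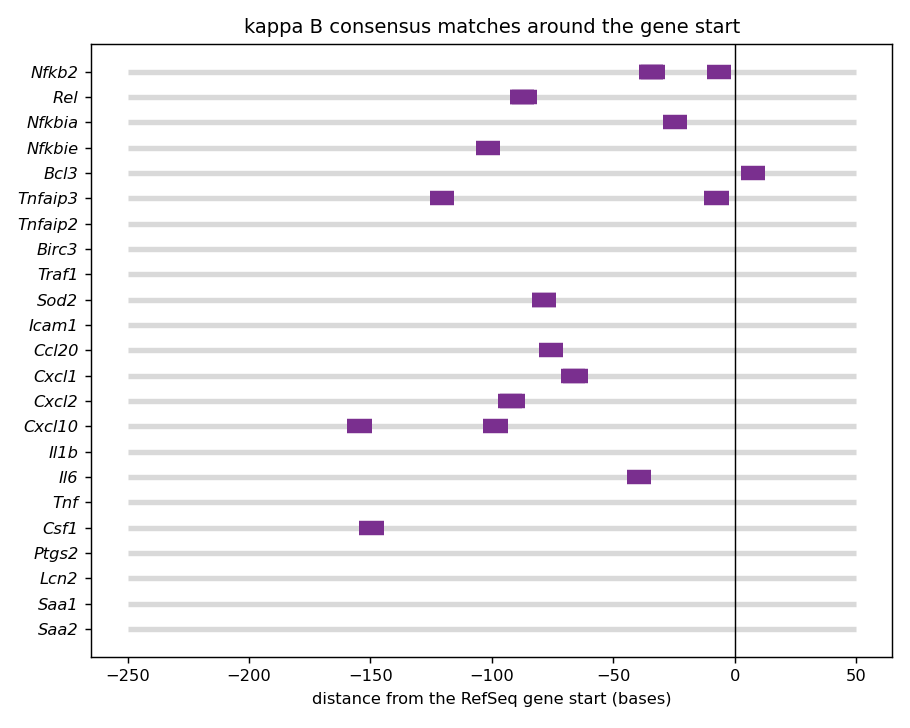
Matches to the kappa B consensus (purple, to scale) in the first RefSeq window (grey bars) of each of the 23 listed genes with an entry, by distance in bases from the gene start. Most matches lie within 160 bases before the start, and 10 genes have none.

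The values were FPKM, fragments scaled to gene length and to the number of fragments in the library. This scaling is meant to make genes and libraries comparable but keeps no read depth. The median log2(FPKM + 1) of all genes tested still ran from 2.35 in knockout replicate 3 to 3.05 in wild-type replicate 1. FPKM sums ran from 379478 to 509453, and a list of 15 milk protein genes held between 47.3% (wild-type replicate 1) and 76.5% (knockout replicate 3) of them. Wild-type replicate 1 was the highest library for 63.5% of the genes tested, and knockout replicate 3 the lowest for 65.8%; the part of the milk share in that order was not tested. Nmi checked the labels, with 2.32 to 4.60 FPKM in wild type and 0.188 to 0.564 FPKM in the knockout. Gapdh, abundant in nearly all cells, was listed at no more than 0.0769 FPKM, so a low entry can be a failed estimate. The luminal epithelial markers Krt8 and Krt18 ran from 198 to 1627 FPKM across the libraries. Summed with 5 other luminal markers, wild-type libraries held 2583 to 5238 FPKM and knockout libraries 1045 to 3318 FPKM. Elf5, with a log2 fold change of 0.19, was the only 1 of these 7 markers above the median of all genes tested. Its highest values were in knockout replicates 1 (237 FPKM) and 3 (207 FPKM), although replicate 3 had the lowest sum. Wild-type libraries held 159 to 173 FPKM of Elf5, and knockout replicate 2 the least (142 FPKM).

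No NF-kB gene passed the test between the genotypes. Genes that reached 1 FPKM in 3 or more libraries were compared with limma on log2(FPKM + 1), and adjusted p-values were taken over all 9767 such genes. Of the 30 listed genes, 27 met the filter; Ccl20, Cxcl5 and Il1b did not. At an adjusted p under 0.05, 0 of the 27 were called, as were 0 (0.0%) of all genes tested. The lowest adjusted p over all genes was 0.372 (limma). Nmi itself met the filter through its wild-type libraries and was also not called. Its mean level dropped from 3.25 FPKM (wild type) to 0.433 FPKM (knockout). A lack of calls therefore does not show that a listed gene was unchanged. At an unadjusted p under 0.05 there was 1 listed gene, Tnfaip3, against 130 genes in all (1.33%), of which those higher in the knockout, as Tnfaip3 was, made up 0.184% of the genes tested. The genotypes did not overlap for that same gene alone, against 450 genes in all (4.61%), or 0.778% with every knockout library above every wild-type one. Adjusted p-values of the 27 genes ran from 0.768 to 0.998 (limma with Benjamini-Hochberg adjustment). The 3 against 3 design gives an exact permutation p of 0.1 at the lowest. The labels number the mice separately but name no litter or batch.

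The listed genes lay above most genes in the comparison. Their log2 fold changes (knockout minus wild type) ran from -0.45 for Il6 to 0.55 for Rel with a median of 0.067, beside a median of -0.21 over all genes tested. They were above 0 for 18 of 27, against 18.3% of all genes, and above the median of all genes for 23 of 27, against 50.0%. The 4 below that median were Ccl2, Cxcl1, Il6 and Lcn2. Fold changes are as deposited; a trimmed-mean rescaling moved the median of all genes to 0.0056 and that of the listed genes to 0.30, with the same 23 of 27 as a number above the median. Half-widths of the 95% confidence intervals had a median of 0.64 for the listed genes and 0.57 for all genes, and every log2 fold change of the listed genes was smaller in size than the former.

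**Figure D2:**
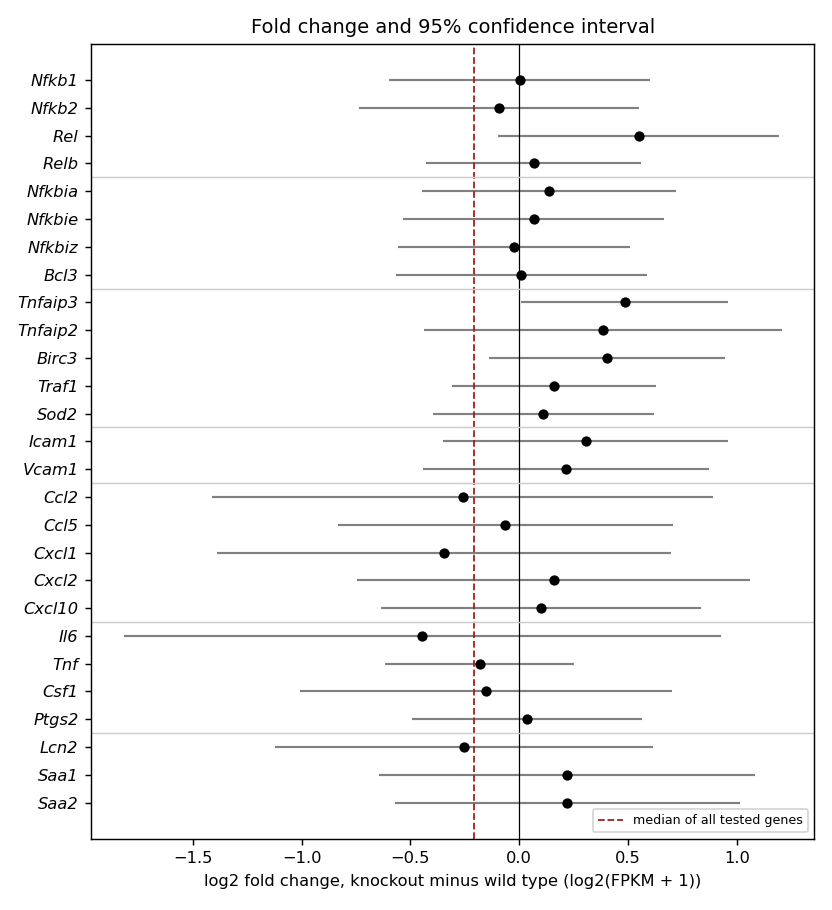
Log2 fold change (knockout minus wild type, on the log2(FPKM + 1) scale, horizontal axis) of the 27 tested genes, grouped by role, with points for the estimate and lines for the unadjusted 95% confidence interval from limma. The dashed line is the median of all 9767 genes; only the interval of Tnfaip3 leaves out 0.

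The subunits that make up the dimers were listed at moderate levels. Nfkb1, which encodes the p105 precursor of p50, was at 17.4, 19.8 and 17.8 FPKM in wild-type replicates 1, 2 and 3 and at 17.1, 25.5 and 14.0 FPKM in knockout replicates 1, 2 and 3. The knockout libraries lay on both sides of the wild-type range, and the log2 fold change was 0.0017 (SE 0.27). Nfkb2, the p100 precursor of p52 in the alternative pathway, was at 16.9, 15.2 and 13.7 FPKM in wild type and 12.1, 21.8 and 10.7 FPKM in the knockout. Knockout replicate 2 was the highest and replicate 3 the lowest of all libraries for both genes. Relb, the partner of p52, was the steadiest of the 30 genes, between 7.34 and 9.41 FPKM, with highest over lowest library at 1.28.

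Rel, which encodes c-Rel, a subunit best known from lymphocytes, was at 0.460, 1.41 and 1.22 FPKM in wild type and at 1.29, 1.36 and 3.53 FPKM in the knockout. One library of each genotype stood apart, wild-type replicate 1 low and knockout replicate 3 high, and the other 4 overlapped between 1.22 and 1.41 FPKM. The log2 fold change of 0.55 (SE 0.29) was the highest of the 27 tested genes, with an adjusted p of 0.768 (limma), and it was 0.23 without knockout replicate 3, 0.33 without wild-type replicate 1 and 0.0058 without both. With library quality weights, which give less weight to libraries that vary more, it was 0.074. Summed over 10 macrophage markers, the libraries held 12.3 to 16.3 FPKM in wild type and 10.8, 21.97 and 23.5 FPKM in knockout replicates 1, 2 and 3. The markers differed in direction: Lyz2 was at 3.23, 5.24 and 3.85 FPKM in wild type and 2.81, 8.75 and 8.56 FPKM in the knockout, and C1qa and C1qb were also highest in knockout replicates 2 and 3. Cd68 was lower in every knockout library, at 6.92, 6.84 and 6.94 FPKM in wild type and 5.03, 5.64 and 3.35 FPKM in the knockout. Such a lack of overlap, in either direction, was found for 4.61% of all genes tested. The 7 T, NK and B cell markers, Cd4 and Gzmb among them, together held at most 0.9 FPKM in any library. The part of immune cells in the Rel values was not tested; in bulk RNA, fewer cells of a type and less RNA per cell cannot be told apart.

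Inhibitors of the IkB family did not pass the test between genotypes. Their log2 fold changes ran from -0.022 to 0.14, with a median confidence half-width of 0.58. After trimmed-mean rescaling the fold changes ran from 0.22 (Nfkbiz) to 0.40 (Nfkbia) for the 4 genes. Nfkbia, the IkB-alpha gene and a direct NF-kB target, was the most abundant of them at 60.6, 65.2 and 53.4 FPKM in wild type and 55.8, 71.5 and 70.4 FPKM in the knockout. The 2 groups overlapped, with a log2 fold change of 0.14 (95% confidence interval -0.45 to 0.72). Bcl3, a nuclear IkB protein that works with p50 and p52, was at 27.9, 37.7 and 34.3 FPKM in wild type and 28.5, 38.9 and 33.3 FPKM in the knockout, almost the same range in both. Nfkbiz, a nuclear IkB protein that acts on Lcn2 and Il6 among others, ranged from 7.09 to 10.1 FPKM in wild type and from 6.71 to 9.05 FPKM in the knockout. Nfkbie, which encodes IkB-epsilon, was between 1.90 and 2.97 FPKM in 5 libraries and at 4.60 FPKM in knockout replicate 2, the library that was also highest for Nfkb1 and Nfkb2.

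**Figure D3:**
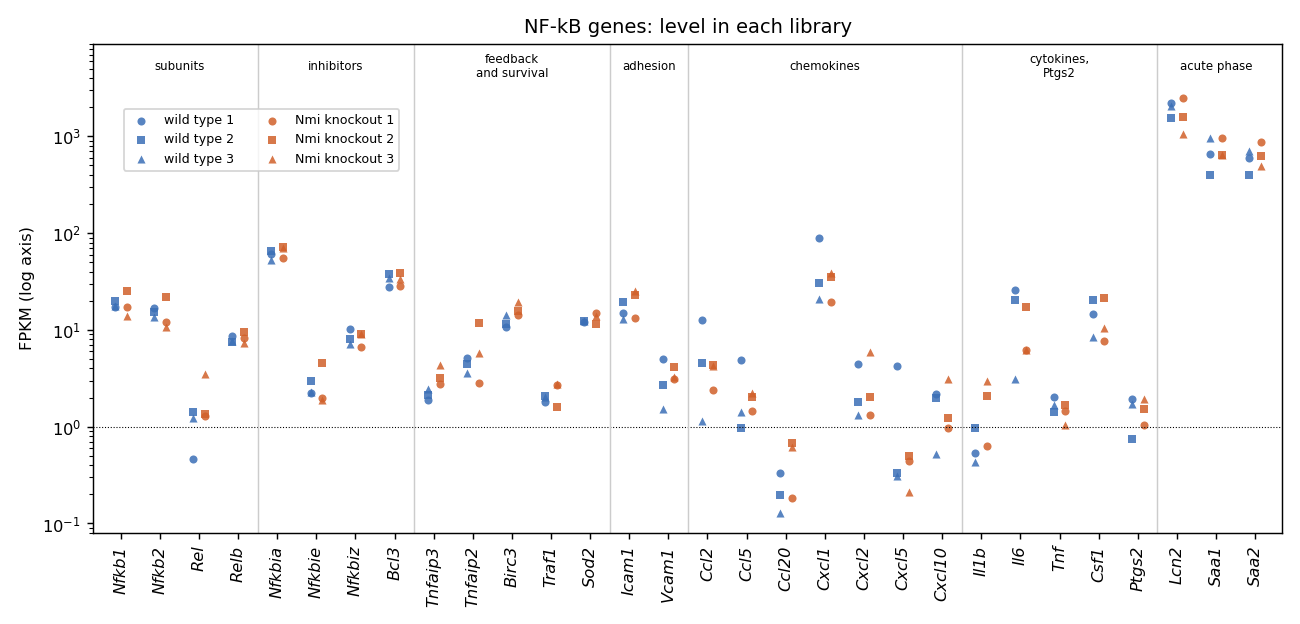
FPKM (log axis) of the 30 genes in each of the 6 libraries, blue for wild type and orange for the Nmi knockout, with 1 marker shape per replicate number; equal numbers do not pair mice. The dotted line is the filter at 1 FPKM; levels run from 0.128 FPKM (Ccl20) to 2489 FPKM (Lcn2), and the colours separate for Tnfaip3 only.

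Feedback and survival genes had 5 of 5 log2 fold changes above 0, a median of 0.38, and no gene past the adjusted threshold. Tnfaip3 encodes A20, the ubiquitin-editing enzyme that switches NF-kB signalling off, and lies at chromosome 10, 19000910 to 19015657, on the minus strand (GENCODE release 21, GRCm38). It was at 1.90, 2.12 and 2.46 FPKM in wild type and at 2.79, 3.22 and 4.38 FPKM in the knockout. Every knockout library was above every wild-type library, by a narrow margin between wild-type replicate 3 and knockout replicate 1. The means were 2.16 ± 0.283 and 3.46 ± 0.826 FPKM (SD, n = 3 each), 1.60 times higher in the knockout. On the log2 scale the difference was 0.48 (SE 0.22; 95% confidence limits 0.0099 and 0.96; adjusted p = 0.768, limma), and the exact permutation p for this gene alone was 0.1, the smallest the design allows. It was between 0.34 and 0.60 when any 1 library was left out, and 0.28 without both wild-type replicate 1 and knockout replicate 3. The unadjusted limma p was no longer under 0.05 without the filter, without the intensity trend, or without wild-type replicate 1, wild-type replicate 2 or knockout replicate 3. A list of 12 dissociation and immediate early genes summed to 793, 1156 and 909 FPKM in wild type and to 1030, 996 and 1614 FPKM in the knockout, and its part in the Tnfaip3 values was not tested.

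Birc3, the ubiquitin ligase cIAP2 that restrains cell death downstream of TNF receptors, was at 10.7, 11.4 and 14.4 FPKM in wild type and 14.2, 15.8 and 19.2 FPKM in the knockout. The groups overlapped only through wild-type replicate 3 and knockout replicate 1, and the log2 fold change of 0.40 (SE 0.25) did not pass (adjusted p = 0.768, limma). It was 0.29 without knockout replicate 3 and 0.32 without wild-type replicate 1. Traf1, an adaptor that binds cIAP proteins, was at 1.78 to 2.10 FPKM in wild type and at 2.71, 1.61 and 2.73 FPKM in the knockout, where replicate 2 was the lowest of all libraries. Sod2, the mitochondrial superoxide dismutase, was nearly constant in wild type (12.1, 12.3 and 12.4 FPKM) and spread from 11.5 to 14.8 FPKM in the knockout. Tnfaip2, a TNF-induced gene of the exocyst-related proteins, was at 5.11, 4.44 and 3.55 FPKM in wild type and at 2.86, 11.9 and 5.78 FPKM in the knockout. Its log2 fold change of 0.38 turned to -0.060 without knockout replicate 2.

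Of the adhesion molecules that capture leukocytes, Icam1 was at 15.01, 19.6 and 13.0 FPKM in wild type and 13.2, 22.7 and 25.0 FPKM in the knockout. Knockout replicates 2 and 3 were above all wild-type libraries and replicate 1 was within their range (log2 fold change 0.31, SE 0.30). It was 0.58 without knockout replicate 1, and 0.14 without knockout replicate 3. Vcam1 was at 5.05, 2.72 and 1.54 FPKM in wild type and between 3.08 and 4.12 FPKM in the knockout, so that the 3 knockout libraries lay inside the wild-type range.

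Chemokines were the least steady of the roles, with all 7 differing by at least 4.51 times between their highest and lowest library. Cxcl1, a neutrophil attractant and the most abundant chemokine of the set, was at 88.4, 30.4 and 20.9 FPKM in wild type and 19.6, 35.5 and 38.7 FPKM in the knockout. Wild-type replicate 1 alone stood above the rest, and the log2 fold change of -0.35 (SE 0.47) became 0.24 without it. Ccl2, a monocyte attractant, was at 12.8, 4.54 and 1.15 FPKM in wild type and 2.41, 4.30 and 4.27 FPKM in the knockout. The wild-type libraries enclosed the knockout ones, and the log2 fold change of -0.26 (SE 0.52) became 0.41 without wild-type replicate 1 and -0.94 without wild-type replicate 3.

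The same wild-type library was the highest for other chemokines. Ccl5, a T cell attractant, was at 4.84 FPKM in wild-type replicate 1 and between 0.962 and 2.25 FPKM in the other 5 libraries. Cxcl5, a further neutrophil attractant under the filter, was at 4.21 FPKM there and between 0.212 and 0.493 FPKM elsewhere, a spread of 19.9 times that was the widest of the 30 genes. The neutrophil marker S100a8 did not follow this order: it was at 8.02 FPKM in wild-type replicate 1 and at 8.61 FPKM in knockout replicate 1, where Cxcl5 was 0.443 FPKM. The neutrophil receptor gene Csf3r was at most 0.026 FPKM in any library. Cxcl2, by contrast, was highest in knockout replicate 3 (5.96 FPKM), then in wild-type replicate 1 (4.46 FPKM), and between 1.32 and 2.04 FPKM in the others. Cxcl10, an interferon-induced T cell attractant, was at 2.20, 2.00 and 0.528 FPKM in wild type and 0.967, 1.24 and 3.09 FPKM in the knockout, with wide overlap. Ccl20, which attracts CCR6-bearing cells, stayed under 1 FPKM in all libraries (0.128 to 0.678 FPKM). Cxcl5, Cxcl1 and Cxcl2 lie together on chromosome 5 between 90759360 and 90905938 of GRCm38, but Cxcl2 was high in a library where Cxcl5 was at its lowest.

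Cytokines did not separate the genotypes either. Il6, which signals through STAT3, was at 26.0, 20.5 and 3.09 FPKM in wild type and 6.17, 17.3 and 6.18 FPKM in the knockout. High values came from wild-type replicates 1 and 2 and knockout replicate 2, and the wild-type range enclosed the knockout one (log2 fold change -0.45, SE 0.62). It was -1.30 without wild-type replicate 3 and 0.063 without wild-type replicate 1. Csf1, the macrophage growth factor, was highest in wild-type replicate 2 and knockout replicate 2: it was at 14.4, 20.2 and 8.41 FPKM in wild type and at 7.77, 21.5 and 10.4 FPKM in the knockout. The libraries with high Il6 also had the highest sums of 7 fibroblast markers, at 106.5, 97.7 and 48.5 FPKM in wild type and 52.8, 137.7 and 84.7 FPKM in the knockout. Postn carried that order, with 58.8, 45.6 and 25.8 FPKM in wild type and 20.6, 78.6 and 33.1 FPKM in the knockout. Other fibroblast markers did not keep it: Col3a1 was higher in knockout replicate 3 (18.6 FPKM), where Il6 was low, than in wild-type replicate 1 (17.0 FPKM), and Col1a1, Col1a2, Dcn and Lum likewise put that knockout library above at least 1 library with high Il6. The 3 libraries with high Il6 also had the highest sums of 7 endothelial markers, led by Cldn5 and Cdh5. Those sums were 142.7, 125.3 and 75.3 FPKM in wild type and 92.0, 131.0 and 66.2 FPKM in the knockout. Vwf and Emcn did not keep this: Vwf was highest in knockout replicate 1 (3.30 FPKM), where Il6 was low. Emcn was higher there (6.85 FPKM) than in knockout replicate 2 (6.56 FPKM). The same 3 libraries with high Il6 were the highest for the summed 6 basal epithelial markers, led by Acta2 and Krt14. These sums were 777, 632 and 375 FPKM in wild type and 293, 1063 and 306 FPKM in the knockout. Oxtr and Trp63 did not keep this: Oxtr was lowest in wild-type replicate 2 (7.44 FPKM). Trp63 was higher in wild-type replicate 3 (2.94 FPKM) than in knockout replicate 2 (2.81 FPKM). The same 3 libraries were also the highest for the summed 7 luminal markers, though Elf5, Kit and Krt19 did not keep this. Those sums were 5238, 3450 and 2583 FPKM in wild type and 2586, 3318 and 1045 FPKM in the knockout. The median log2(FPKM + 1) of all genes tested was 3.05, 2.81 and 2.61 in wild type and 2.65, 2.80 and 2.35 in the knockout. It too was highest in these 3 libraries. The part of these cell types, or of this order over all genes, in the Il6 and Csf1 values was not tested.

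Il1b, made mainly by activated myeloid cells, was under the filter, with 0.540, 0.962 and 0.431 FPKM in wild type and 0.626, 2.09 and 2.94 FPKM in the knockout. Knockout replicates 2 and 3 were above the wild-type libraries, and knockout replicate 1 was within their range. Those 2 libraries also held the highest macrophage marker sums, through Lyz2, C1qa and C1qb, whereas Cd68 was below every wild-type library in both. The part of macrophages in the Il1b values was not tested. Tnf was low and narrow, from 1.40 to 2.02 FPKM in wild type and from 1.04 to 1.67 FPKM in the knockout, with a log2 fold change of -0.18 (SE 0.20). Ptgs2, the inducible cyclooxygenase, was between 0.749 and 1.95 FPKM in wild type and between 1.05 and 1.91 FPKM in the knockout.

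The acute phase proteins were far more abundant than the other listed genes. Lcn2, which encodes the iron-sequestering protein lipocalin 2, was at 2221, 1558 and 2061 FPKM in wild type and 2489, 1591 and 1059 FPKM in the knockout. It ranked from 10 to 16 among the 17739 genes in every library, beside milk proteins. The knockout held both the highest and the lowest value, and the log2 fold change was -0.25 (SE 0.40), or 0.048 without knockout replicate 3. Saa1, a serum amyloid A lipoprotein, was at 657, 394 and 967 FPKM in wild type and 960, 636 and 649 FPKM in the knockout. Saa2 followed it at 603, 396 and 707 FPKM in wild type and 869, 620 and 497 FPKM in the knockout. Wild-type replicate 2 was lowest for both, and the groups overlapped widely, with log2 fold changes of 0.22 for both (SE 0.39 and 0.36). With library quality weights these were 0.93 for Saa1 and 0.84 for Saa2, neither past the adjusted threshold. Their transcripts are 93.9% identical over the whole of the longest Saa1 transcript, so reads may have been divided between them uncertainly. The ratio of Saa1 to Saa2 ran from 0.996 to 1.37 across libraries. Saa1 and Saa2 lie side by side on chromosome 7, at 46740497 to 46742980 and 46751790 to 46754313, on opposite strands.

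**Figure D4:**
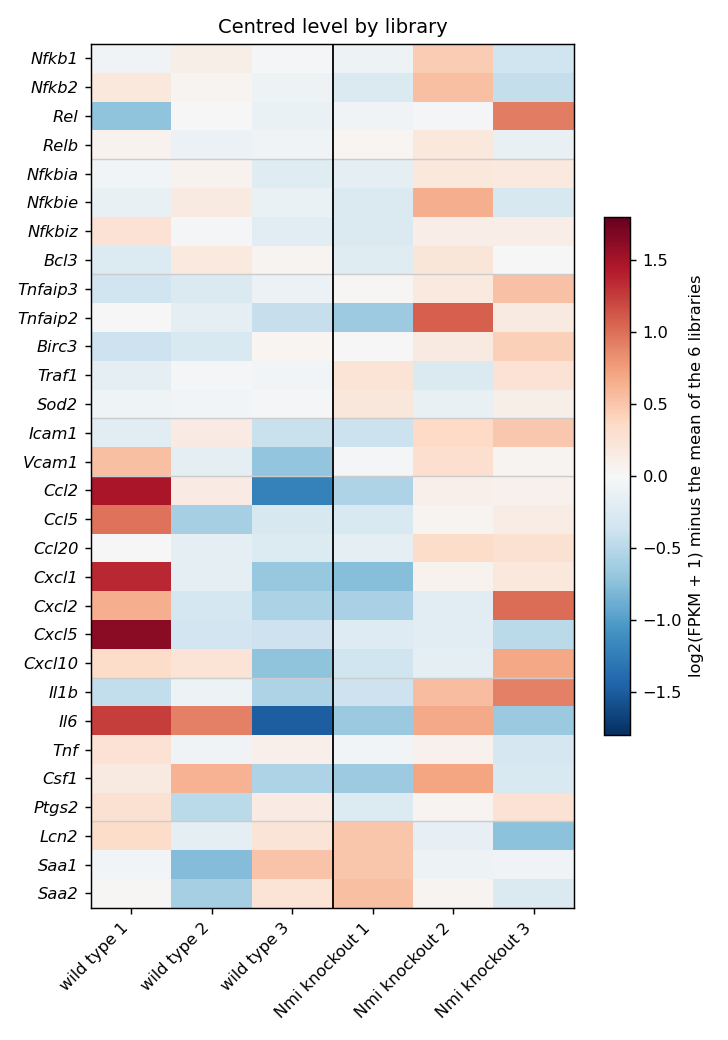
Level of each of the 30 genes in each library as log2(FPKM + 1) minus the mean of that gene over the 6 libraries (colour scale), with the genotypes separated by the black line and the roles by grey lines. Wild-type replicate 1 is red for Ccl2, Ccl5, Cxcl1 and Cxcl5. Knockout replicates 2 and 3 are both red for some genes, such as Icam1 and Il1b, and differ for others, such as Nfkb1.

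The order of the libraries for these genes differed from their order over all genes. Among the 27 tested genes, wild-type replicate 1 was the highest library for 8, knockout replicate 2 for 8 and knockout replicate 3 for 7. Over all genes tested, these libraries were the highest for 63.5%, 11.7% and 7.74%. Knockout replicate 3 was the lowest library for 6 of the 27 genes, against 65.8% of all genes. Each gene has only 1 highest library, so the genes led by each library cannot be shared between them. Some genes were high in more than 1 of these libraries. Centred log2 levels of Cxcl2 were 0.66 in wild-type replicate 1 and 1.01 in knockout replicate 3. Those of Icam1 were 0.36 and 0.49 in knockout replicates 2 and 3. Wild-type replicate 1 led for Ccl2, Ccl5, Cxcl1, Il6, Vcam1, Tnf, Ptgs2 and Nfkbiz, which are chemokines, cytokines and an adhesion molecule apart from Ptgs2 and Nfkbiz. Knockout replicate 2 led for Nfkb1, Nfkb2, Relb, Nfkbia, Nfkbie, Bcl3, Tnfaip2 and Csf1, mostly subunits and inhibitors. Knockout replicate 3 led for Rel, Tnfaip3, Birc3, Traf1, Icam1, Cxcl2 and Cxcl10. The mean centred log2 level of the 27 genes was 0.21, -0.059 and -0.25 in wild type and -0.17, 0.19 and 0.075 in the knockout, with full overlap.

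**Figure D5:**
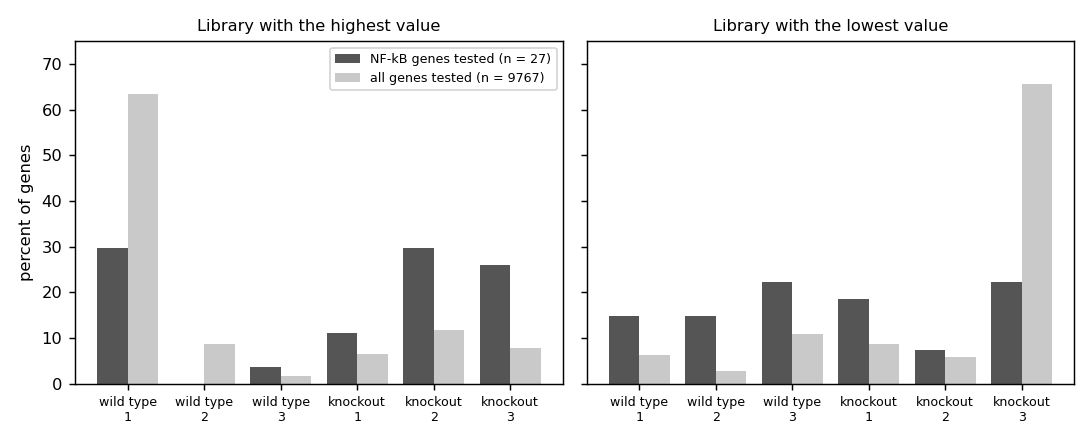
Percent of genes for which each library held the highest (left) or the lowest (right) FPKM, for the 27 tested NF-kB genes (dark bars) and all 9767 tested genes (light bars). The light bars peak at wild-type replicate 1 on the left and knockout replicate 3 on the right, whereas the dark bars are spread over several libraries.

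The rest of the pathway gave no call between genotypes. Among 28 receptors, adaptors and kinases upstream of NF-kB, 24 were tested and 0 passed in either direction (median log2 fold change -0.15, and 16 above the median of all genes). The smallest unadjusted p-values there belonged to the lymphotoxin beta receptor Ltbr (19.0 ± 2.61 and 14.5 ± 4.87 FPKM in wild type and knockout; SD, n = 3 each), Il1rap, a chain of the interleukin-1 receptor (4.93 ± 1.06 and 3.76 ± 0.636 FPKM), and Irak3, an inhibitory kinase-like protein (3.37 ± 0.326 and 2.60 ± 1.05 FPKM). Of 14 other subunits, inhibitors and feedback genes, 13 were tested and 0 passed (median -0.11, and 8 above the median of all genes). Gadd45b, a stress-induced survival gene, was at 41.7, 18.04 and 20.9 FPKM in wild type and at 12.2, 17.0 and 16.1 FPKM in the knockout. Its groups did not overlap, with the knockout lower, but wild-type replicate 1 carried most of the difference. Of all genes tested, 4.61% did not overlap in either direction, and most of these were lower in the knockout. Zfp36, which encodes the mRNA-destabilizing protein tristetraprolin, was chosen after its values were seen. Its groups did not overlap in the other direction, higher in the knockout, as for 0.778% of all genes tested. It was at 71.1, 71.8 and 61.9 FPKM in wild type and 77.7, 82.8 and 220.4 FPKM in the knockout. Ier3, an early response gene, had means of 185 ± 104 and 95.2 ± 38.9 FPKM, and Tnip3, an A20-binding protein, had 0.872 ± 0.306 and 1.48 ± 0.326 FPKM.

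Of 25 other chemokines, cytokines and acute phase proteins, 16 were tested and 0 passed (median -0.16, and 11 above the median of all genes). Orm1, an acute phase glycoprotein, was at 61.1, 56.6 and 84.6 FPKM in wild type and 113, 72.4 and 120 FPKM in the knockout, with overlap through wild-type replicate 3. Saa3, the serum amyloid gene expressed outside the liver, had means of 14.4 ± 7.19 and 21.4 ± 6.71 FPKM, and Cp, the copper carrier ceruloplasmin, had 124 ± 13.5 and 88.9 ± 45.8 FPKM (SD, n = 3 each). In all of these lists the adjusted p-values were 0.768 or higher (limma). The dissociation and immediate early list also had 0 of 12 genes called, with 12 above the median of all genes. Jun, like Zfp36 chosen after its values were seen, did not overlap and was higher in the knockout, as were 0.778% of all genes tested. It was at 89.0, 110 and 79.1 FPKM in wild type and 114, 121 and 142 FPKM in the knockout. Egr1 was at 4.57, 16.7 and 9.24 FPKM in wild type and 17.1, 13.6 and 34.9 FPKM in the knockout, Fos had means of 43.4 ± 21.4 and 103 ± 76.7 FPKM, and Fosb had 18.7 ± 14.97 and 35.6 ± 17.1 FPKM.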

How the data were processed

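Gene expression was measured by RNA sequencing of 6 libraries. The FPKM values were made and deposited by the authors. FastQC, TopHat, SAMtools and Cufflinks, with builds mm10 and GRCm38, are named per the submitters' processing notes. Tool versions and strand settings: not given in the sources used here. Such values keep no read depth, so no counting interval was computed and precision rests on the spread between mice.

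Values were compared as log2(FPKM + 1) for genes that reached 1 FPKM in 3 or more libraries, with limma 3.58.1 (R 4.3.3, empirical Bayes with intensity trend), two-sided, Benjamini-Hochberg adjusted over all genes tested. A run on simulated data drew independent noise for each gene, without shifts shared across a library. It cannot show how often calls would be right in these data. The pseudocount makes fold changes of low genes too small. Members and lists (5 pathway and 8 marker lists) were chosen with earlier results of these data known. All 30 members are described. Named were 2 of the highest marker genes per cell type where values touch a result, and further markers where they bear on a sum. For each pathway list 3 genes with the smallest p were named, with Zfp36 and Jun added. The milk protein genes so named had means of 635 ± 572 and 957 ± 643 FPKM for Csn1s2b, 249 ± 139 and 404 ± 224 FPKM for Cel, and 293 ± 126 and 417 ± 106 FPKM for Btn1a1 in wild type and knockout (SD, n = 3 each). Milk protein genes had 0 of 15 called and 15 above the median of all genes; basal markers summed to 293 to 1063 FPKM, neutrophil markers to 1.3 to 8.6 FPKM and adipocyte markers to at most 1.8 FPKM. Near-identical copies were sought with BLAST 2.17.0 in GENCODE mouse release 21 transcripts. Promoter windows are from RefSeq (GRCm38.p6). Alternatives tried were the pseudocount, the filter, 3 rescalings, the trend, library weights and left-out libraries.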

Additional observations from a re-analysis of the deposited data

How the results depend on the processing

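No paired analysis was possible because the labels give each mouse its own number, shared by no mouse of the other genotype. Under 14 alternatives, 0 listed genes were called (lowest adjusted p = 0.403, limma). The 23 of 27 listed genes above the median of all genes became 18 to 24, or 20 to 26 with 1 library left out. Without the filter, 30 listed genes were tested, and the count was 21 of 30. The count of all genes called, 0 as reported, was 2 with library quality weights and 1 without both end libraries, and 0 with any 1 library left out. The median log2 fold change of the listed genes, 0.067, was 0.30 after trimmed-mean rescaling and 0.29 after quantile normalization; it was -0.085 with library quality weights, where 12 instead of 18 of the 27 genes were above 0, and ran from -0.015 to 0.18 with 1 library left out. Of the genes with an unadjusted limma p under 0.05, 13.8% were higher in the knockout as deposited, 55.0% after trimmed-mean rescaling, 48.6% after quantile normalization and 43.5% after scaling outside the milk proteins. They numbered 130 as deposited, 326 without a filter, 1142 with library weights, and from 25 (without wild-type replicate 1) to 1187 (without knockout replicate 2). The kappa B count was 12 instead of 13 genes when only bases before the start were searched.

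The sign of the log2 fold change, in no case past the threshold, held under all alternatives for 5 of 27 genes (Rel, Birc3, Tnfaip3, Traf1 and Sod2). After trimmed-mean rescaling it changed for Nfkb2 (0.16), Nfkbiz (0.22), Ccl5 (0.14), Csf1 (0.10), Lcn2 (0.013). After quantile normalization it changed for Nfkb2 (0.15), Nfkbiz (0.20), Ccl5 (0.15), Csf1 (0.089). After scaling to non-milk genes it changed for Nfkb2 (0.11), Nfkbiz (0.18), Ccl5 (0.10), Csf1 (0.051). With library quality weights it changed for Nfkb1 (-0.093), Nfkbia (-0.088), Nfkbie (-0.20), Bcl3 (-0.25), Tnfaip2 (-0.086), Icam1 (-0.24), Ccl5 (0.28), Cxcl2 (-0.085), Cxcl10 (-0.38), Lcn2 (0.37). Without wild-type replicate 1 and knockout replicate 3 it changed for Nfkb2 (0.17), Nfkbiz (0.041), Bcl3 (-0.11), Ccl2 (0.30), Ccl5 (0.33), Cxcl1 (0.066), Cxcl10 (-0.030), Il6 (0.29), Tnf (0.0092), Lcn2 (0.15). With a pseudocount of 0.1 it changed for Nfkb1 (-0.00013). The ranges with 1 library left out, for genes whose sign changed, were Nfkb1 (-0.23 to 0.18), Nfkb2 (-0.39 to 0.10), Relb (-0.015 to 0.15), Nfkbie (-0.24 to 0.23), Nfkbiz (-0.13 to 0.11), Bcl3 (-0.11 to 0.12), Tnfaip2 (-0.060 to 0.81), Vcam1 (-0.085 to 0.54), Ccl2 (-0.94 to 0.41), Ccl5 (-0.38 to 0.41), Cxcl1 (-0.77 to 0.24), Cxcl2 (-0.30 to 0.53), Cxcl10 (-0.24 to 0.31), Il6 (-1.30 to 0.063), Csf1 (-0.54 to 0.14), Ptgs2 (-0.20 to 0.18), Lcn2 (-0.57 to 0.048), Saa1 (-0.12 to 0.53), Saa2 (-0.019 to 0.41). The cause was not tested. With library weights 5 listed genes instead of 1 had an unadjusted limma p under 0.05, and the log2 fold changes of Il6 and Csf1 were -1.08 and -0.83. The library weights were estimated gene by gene, chosen after the data were seen because the default estimate did not converge. The depth of the libraries is unknown, and lone changes smaller than the confidence intervals could not be detected.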
